A study of Mus musculus with 4 samples.

Results

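Mitosis is carried out by a shared set of kinases, motors and chromosome proteins, and the transcripts of 46 genes of this set were followed in cultured mouse fat-tissue cells. The members were taken by gene symbol from a written list, with no limit on a measured value, although earlier results of these data were known when the list was made. All 46 were found among the 32285 genes of the count tables. Single-cell RNA sequencing with 10x Genomics 3′ chemistry had been run on 4 libraries, 1 per condition. De-differentiated fat (DFAT) cells of iWAT_DFAT and eWAT_DFAT are the fibroblast-like cells that floating adipocytes of the inguinal (iWAT) and epididymal (eWAT) depots give rise to in ceiling culture. The iWAT_ASPC and eWAT_ASPC libraries hold the adherent stromal vascular cells of the same depots after primary culture, called adipose stem and progenitor cells (ASPCs). All cells came from chow-fed male C57BL/6J mice without a transgene, and were sorted with the dye 7-AAD, which marks dead cells, before capture. Each library is thus 1 culture condition without a repeat. The age of these mice and the number pooled per library are not given in the sources used here.

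A cell enters mitosis when cyclin-dependent kinase 1, bound to a B-type cyclin, becomes active, and it leaves mitosis when the anaphase-promoting complex marks those cyclins and securin for destruction. Between these steps the chromosomes condense, kinetochores attach them to the spindle, a checkpoint holds anaphase until every chromosome is attached, and a contractile ring divides the cell. Most of the transcripts involved are made from late S phase onward under the control of B-MYB, FOXM1 and the MuvB complex, and they are widely used to recognise dividing cells.

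Captured RNA molecules, counted by their molecular barcodes (UMIs), were read in barcodes with 5000 to 75000 UMIs, 200 to 7500 genes and under 10% mitochondrial UMIs. This left 7629 iWAT_DFAT, 6464 eWAT_DFAT, 7424 iWAT_ASPC and 6745 eWAT_ASPC cells, with median depths of 22111, 27425, 24930 and 27617 UMIs per cell. Stromal identity was checked on stromal markers, and UMIs of 3 or more of 7 such markers were found in 98.7%, 91.5%, 96.2% and 95.8% of the cells. These markers do not tell DFAT cells from ASPCs. Of 28165 distinct barcodes, 97 occurred in more than 1 library. Levels are UMIs summed over cells and scaled to 1000000 (CPM). The 95% intervals are exact and cover counting error only, because each condition is a single library: no test across samples was run, and differences between cultures of the same kind were not measured.

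Promoter sequences are shown first because most members were high in the same cells. RefSeq promoters, from 250 bases before to 50 bases after the start site on GRCm38.p6, were matched for 39 of the 46 members. Ccna2, Aurkb, Tpx2, Kif20a, Incenp, Smc4 and Cdc25c had no entry. Below are the 150 bases upstream of the RefSeq start of 6 members, 5′ to 3′ on the strand of the gene, with capitals for matches of 2 motifs on either strand. One motif is CCAAT, which reads ATTGG on the other strand. The other motif is TTTGAA, which reads TTCAAA on the other strand, with TTCGAA as its variant form. CCAAT is the box bound by NF-Y, and TTTGAA or its variant is the core of the cell cycle genes homology region bound by the MuvB complex. Cdc20 and Plk1 are shown because their transcripts define the cells compared below, Cdk1 and Ccnb1 because they encode the mitotic kinase and its cyclin, Top2a because the window searched held 6 matches of CCAAT and 4 of the other motif, and Pttg1 because its level was similar in the cells compared.
Cdc20, chr4:118437344-118437493, minus strand: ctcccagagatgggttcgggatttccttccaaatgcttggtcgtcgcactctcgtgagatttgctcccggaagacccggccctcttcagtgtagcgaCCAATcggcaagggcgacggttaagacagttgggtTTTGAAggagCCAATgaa
Plk1, chr7:122159285-122159434, plus strand: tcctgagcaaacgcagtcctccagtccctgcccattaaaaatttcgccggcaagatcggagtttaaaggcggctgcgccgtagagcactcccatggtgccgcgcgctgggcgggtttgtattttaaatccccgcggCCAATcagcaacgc
Cdk1, chr10:69352913-69353062, minus strand: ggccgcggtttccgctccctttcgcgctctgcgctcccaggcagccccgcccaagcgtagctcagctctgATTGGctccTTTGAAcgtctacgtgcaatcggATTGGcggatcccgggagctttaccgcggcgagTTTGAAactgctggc
Ccnb1, chr13:100786487-100786636, minus strand: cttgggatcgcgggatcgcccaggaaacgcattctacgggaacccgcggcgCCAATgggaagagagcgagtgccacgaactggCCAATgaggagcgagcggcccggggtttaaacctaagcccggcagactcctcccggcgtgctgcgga
Top2a, chr11:99024190-99024339, minus strand: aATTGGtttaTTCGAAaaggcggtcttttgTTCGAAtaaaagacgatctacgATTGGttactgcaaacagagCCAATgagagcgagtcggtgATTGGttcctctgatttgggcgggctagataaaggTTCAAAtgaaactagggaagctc
Pttg1, chr11:43425982-43426131, minus strand: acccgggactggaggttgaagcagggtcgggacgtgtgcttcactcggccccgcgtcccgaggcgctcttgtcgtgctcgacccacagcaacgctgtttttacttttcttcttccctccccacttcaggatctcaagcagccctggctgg
In the 300 bases searched, on both strands and with overlapping matches counted, CCAAT was found in 30 of the 39 members (76.9%), against 41.1% of 27025 genes with a promoter entry. TTTGAA or TTCGAA was found in 31 members (79.5%), against 21.7% of all genes. Both kinds of match were present in 27 members (69.2%), against 8.61% of all genes. A list of 65 other mitosis genes, of which 54 had an entry, held both in 40.7%. In Plk1 the match of TTTGAA or its variant lay after the start site, outside the printed bases, and Ccnb1 held none. The Pttg1 window held neither, as did those of Nuf2, Knstrn, Nusap1 and Birc5, whose levels did follow the split given below. The RefSeq start used for Pttg1 lies inside the gene as annotated for its span, which begins at chr11:43426251 on the minus strand. The Pttg1 window thus lies wholly within that span, and the bases upstream of the span were not searched. The same holds for the windows of Kif2c, Cdca8, Cdca3 and Kif4, which are counted above as they are. These are matches of letters, and binding was not measured.

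Every member was detected in every library. The summed level of the 46 members was 2680 CPM in iWAT_DFAT, 2620 in eWAT_DFAT, 2790 in iWAT_ASPC and 2060 in eWAT_ASPC. The eWAT_ASPC library had the lowest level of the 4 for 42 members, and the iWAT_ASPC library had the highest for 21. The highest and the lowest library differed by a median of 1.48-fold per member, from 1.16-fold for Knstrn to 2.1-fold for Mki67. Levels are compared below between libraries for each gene and not between genes. In sums over all cells such as these, fewer dividing cells and less RNA per dividing cell cannot be told apart. The split by cell that follows does not settle this, since its classes depend on detecting Cdc20 and Plk1, both members, and on depth.

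**Figure D1:**
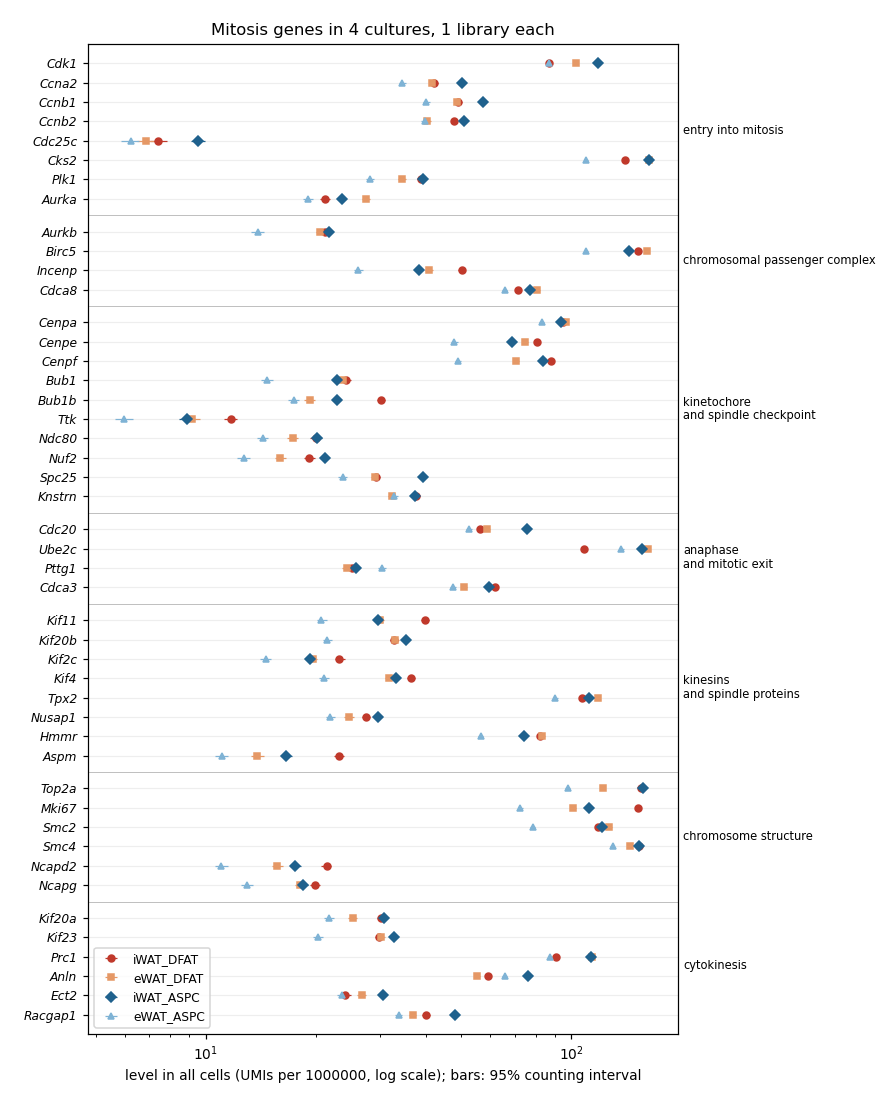
Level of each of the 46 members in all cells of the 4 libraries, on a log axis in UMIs per 1000000, with 95% counting intervals and members grouped by role. For 42 members the eWAT_ASPC point lies furthest to the left, with Pttg1 as the 1 member that is highest there.

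The drivers of entry into mitosis were lowest in eWAT_ASPC in each case. Cdk1, the catalytic subunit, was at 86.8 CPM in iWAT_DFAT, 103 in eWAT_DFAT, 118 in iWAT_ASPC and 86.7 in eWAT_ASPC. Ccnb1, which encodes cyclin B1, was at 49.0, 48.8, 57.4 and 40.1 CPM in the same order. Both were thus highest in iWAT_ASPC, while for Cdk1 the iWAT_DFAT level equalled that of eWAT_ASPC within counting error. Plk1, the kinase that drives centrosome maturation and bipolar spindle assembly, was at 38.7, 34.4, 39.3 and 28.2 CPM. Aurka, encoding the centrosomal kinase Aurora A, was at 21.2, 27.4, 23.6 and 19.1 CPM, the 1 gene of this group with its highest level in eWAT_DFAT. Ccna2 (cyclin A2), Ccnb2 (cyclin B2), Cdc25c (a phosphatase that activates Cdk1) and Cks2 (a Cdk1-binding subunit) differed by 1.45-, 1.28-, 1.53- and 1.48-fold between their highest and lowest library.

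Members of the chromosomal passenger complex, which corrects faulty attachments, were lowest in eWAT_ASPC as well. Aurkb, its kinase, stood at 21.2, 20.6, 21.7 and 13.9 CPM, so that the first 3 libraries lay close together and the last apart. Incenp, the scaffold that activates Aurora B, had another order, with 50.1 CPM in iWAT_DFAT, 40.8 in eWAT_DFAT, 38.4 in iWAT_ASPC and 26.1 in eWAT_ASPC. Birc5 (survivin) and Cdca8 (borealin), the targeting subunits, were highest in eWAT_DFAT at 161 and 80.8 CPM.

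Most kinetochore and checkpoint genes were again lowest in eWAT_ASPC, with Knstrn as the exception. Cenpf, encoding a large kinetochore and nuclear matrix protein, was at 88.2 CPM in iWAT_DFAT, 70.6 in eWAT_DFAT, 83.6 in iWAT_ASPC and 49.0 in eWAT_ASPC. Cenpe, the kinetochore motor, was at 80.6, 74.6, 68.9 and 47.9 CPM. Bub1b, encoding the checkpoint protein BubR1, was at 30.2, 19.3, 22.8 and 17.4 CPM and stood out in iWAT_DFAT. Ttk, the Mps1 kinase that starts checkpoint signalling, was at 11.7, 9.2, 8.88 and 5.98 CPM, and its eWAT_ASPC level rests on 1181 UMIs. Cenpa, the centromeric histone H3 variant, and Knstrn, the kinetochore-localised astrin partner, were the steadiest, with 1.17- and 1.16-fold between extremes. Bub1, Ndc80, Nuf2 and Spc25, a checkpoint kinase and 3 subunits of the microtubule-binding NDC80 complex, differed by 1.64-, 1.41-, 1.67- and 1.66-fold.

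Genes of anaphase and mitotic exit did not share 1 order. Cdc20, the activator of the anaphase-promoting complex, was at 56.3, 58.9, 75.6 and 52.4 CPM, highest in iWAT_ASPC. Ube2c, the ubiquitin-conjugating enzyme of that complex, was at 108, 162, 156 and 137 CPM, and was the 1 member with its lowest level in iWAT_DFAT. Pttg1, which encodes securin, the inhibitor of separase, was at 25.1, 24.3, 25.7 and 30.4 CPM, highest in the library where most members were lowest. Cdca3, listed with this group although it is a trigger of mitotic entry through the degradation of Wee1, was at 62.0, 51.0, 59.4 and 47.5 CPM.

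The motors and spindle proteins, the chromosome proteins and the cytokinesis genes completed the set. Kif11, the motor that pushes spindle poles apart, was at 39.8, 29.9, 29.6 and 20.7 CPM, and Aspm, a protein of the spindle pole, at 23.2, 13.8, 16.6 and 11.1 CPM. Mki67, the coat protein of mitotic chromosomes and source of the Ki-67 antigen, was at 152, 101, 112 and 72.5 CPM. These 3 were all highest in iWAT_DFAT, and Mki67 and Aspm were the members that differed 2-fold or more between extremes. Top2a, the topoisomerase that untangles sister chromatids, was at 155, 122, 157 and 97.8 CPM, with both iWAT libraries above both eWAT libraries. Prc1, which bundles the central spindle, was at 91.0, 114, 113 and 87.5 CPM, with the ASPC level above the DFAT level in iWAT and below it in eWAT. Anln, which organises the contractile ring, was at 59.3, 55.2, 76.3 and 65.8 CPM, and its ASPC level was above its DFAT level in both depots. The spindle genes Kif20b, Kif2c, Kif4, Tpx2, Nusap1 and Hmmr differed by 1.30- to 1.73-fold between extremes. Smc2, Smc4, Ncapd2 and Ncapg, all coding for condensin subunits, differed by 1.18- to 1.94-fold. Kif20a, Kif23, Ect2 and Racgap1, which build the midzone and place the division plane, differed by 1.29- to 1.61-fold.

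Cells were then split by the transcripts of Cdc20 and Plk1. UMIs of both were found in 25.4% of iWAT_DFAT cells (1935 cells, interval 24.4 to 26.4%), 30.7% of eWAT_DFAT cells (1983 cells, 29.6 to 31.8%), 28.6% of iWAT_ASPC cells (2125 cells, 27.6 to 29.7%) and 21.5% of eWAT_ASPC cells (1448 cells, 20.5 to 22.5%). Neither transcript was found in 4253, 2921, 3614 and 4001 cells, and the remaining cells had 1 of them. When each cell was thinned to 5000 UMIs, the shares with both were 6.49%, 5.85%, 8.12% and 5.43%, so eWAT_DFAT went from the highest share to one below both iWAT libraries. The order of the shares therefore depended on depth, except that eWAT_ASPC was lowest both ways. After thinning, however, its interval (4.9 to 5.99%) overlapped that of eWAT_DFAT (5.29 to 6.45%). Cells with both were also deeper than cells with neither, with medians of 28465 against 19822 UMIs in iWAT_DFAT, 32406 against 24418 in eWAT_DFAT, 30037 against 22548 in iWAT_ASPC and 32524 against 26044 in eWAT_ASPC. The split is therefore also given below with classes made after thinning, and other effects of depth were not tested. The free RNA of each library was read from droplets with 1 to 100 UMIs. Were 5% of the UMIs of each cell free RNA, that source alone would give both transcripts in 0.384%, 0.455%, 0.647% and 0.338% of the cells.

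The other members occurred in the same cells. Classes were read at full depth here, and the other members were then counted with every cell thinned to 5000 UMIs. A cell with both transcripts held UMIs of a median of 17 of the 44 other members in iWAT_DFAT, 16 in eWAT_DFAT, 17 in iWAT_ASPC and 16 in eWAT_ASPC. A cell with neither held a median of 1, 2, 1 and 1. At full depth the medians were 36, 35, 36 and 36 against 5, 6, 5 and 5. After thinning, 10 or more of the 44 members were found in 89.3%, 85.1%, 89.2% and 83.3% of the cells with both, and in 3.72%, 4.86%, 3.82% and 2.82% of the cells with neither. Over all cells this held for 31.8% of iWAT_DFAT, 37.4% of eWAT_DFAT, 35.6% of iWAT_ASPC and 24.8% of eWAT_ASPC cells. At equal depth, and without Cdc20 and Plk1, eWAT_DFAT therefore had the highest share and eWAT_ASPC the lowest. The limit of 10 is a point on a range and not a boundary between types, since 9.54%, 12.1%, 9.01% and 8.50% of the cells held 8 to 11 members. At a limit of 15 members the shares were 20.6%, 22.0%, 23.5% and 15.1%, and iWAT_ASPC came first.

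**Figure D2:**
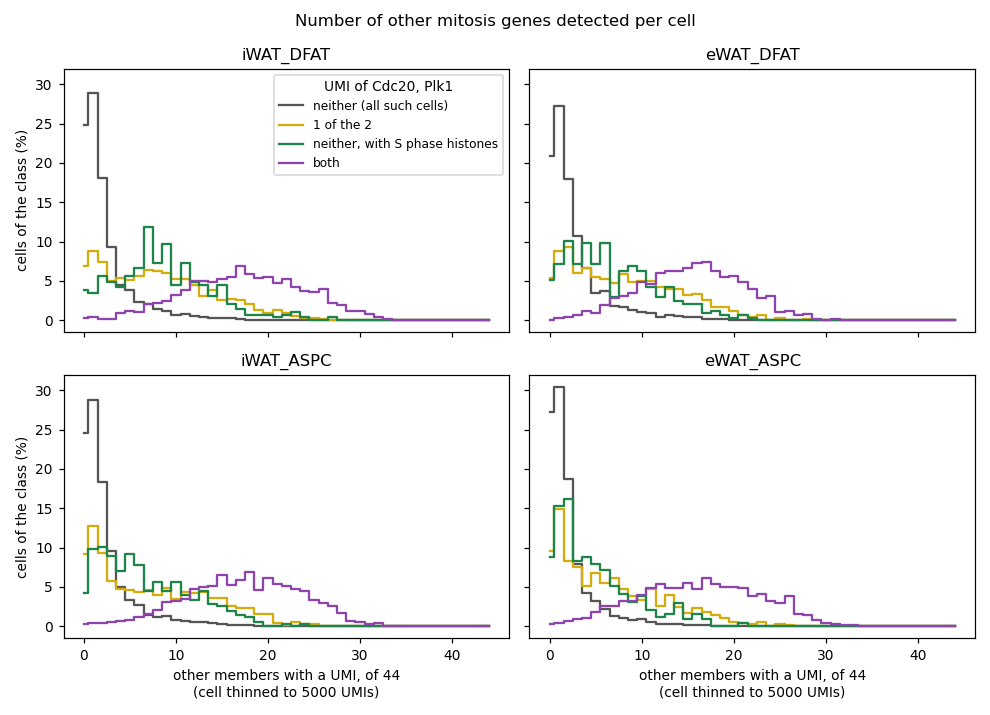
Number of the 44 other members with a UMI per cell (horizontal axis) against the percentage of cells of a class (vertical axis), 1 panel per library. Classes were read at full depth, and members were counted with each cell thinned to 5000 UMIs. Cells with both Cdc20 and Plk1 have medians of 16 or 17 members and cells with neither of 1 or 2, and the medians of cells with 1 of the 2 transcripts (7, 7, 6 and 5) and of S phase cells (8, 6, 6 and 4) lie between, although the commonest number in cells with 1 transcript is 1 or 2 members.

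In each library 43 of the 44 other members were 2-fold or more higher in cells with both transcripts than in cells with neither, and Pttg1 was the exception. The share of all genes at 5 CPM or more that passed the same fold was 4.15% in iWAT_DFAT, 3.3% in eWAT_DFAT, 4.17% in iWAT_ASPC and 4.59% in eWAT_ASPC. The median log2 ratio of the members was 3.61, 3.21, 3.70 and 3.94, against 0.03, -0.01, 0.03 and 0.00 over all genes. Of the 100 genes with the largest ratio once Cdc20 and Plk1 were set aside, 39, 40, 41 and 40 were among the 44 members and a further 41, 39, 38 and 40 were other mitosis genes. The members share a function with the 2 genes that made the split, so the count itself describes how far the set goes together. With classes read after thinning to 5000 UMIs, the medians were 2.32, 1.83, 2.32 and 2.91, and the count stayed at 43 of 44 in each library.

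**Figure D3:**
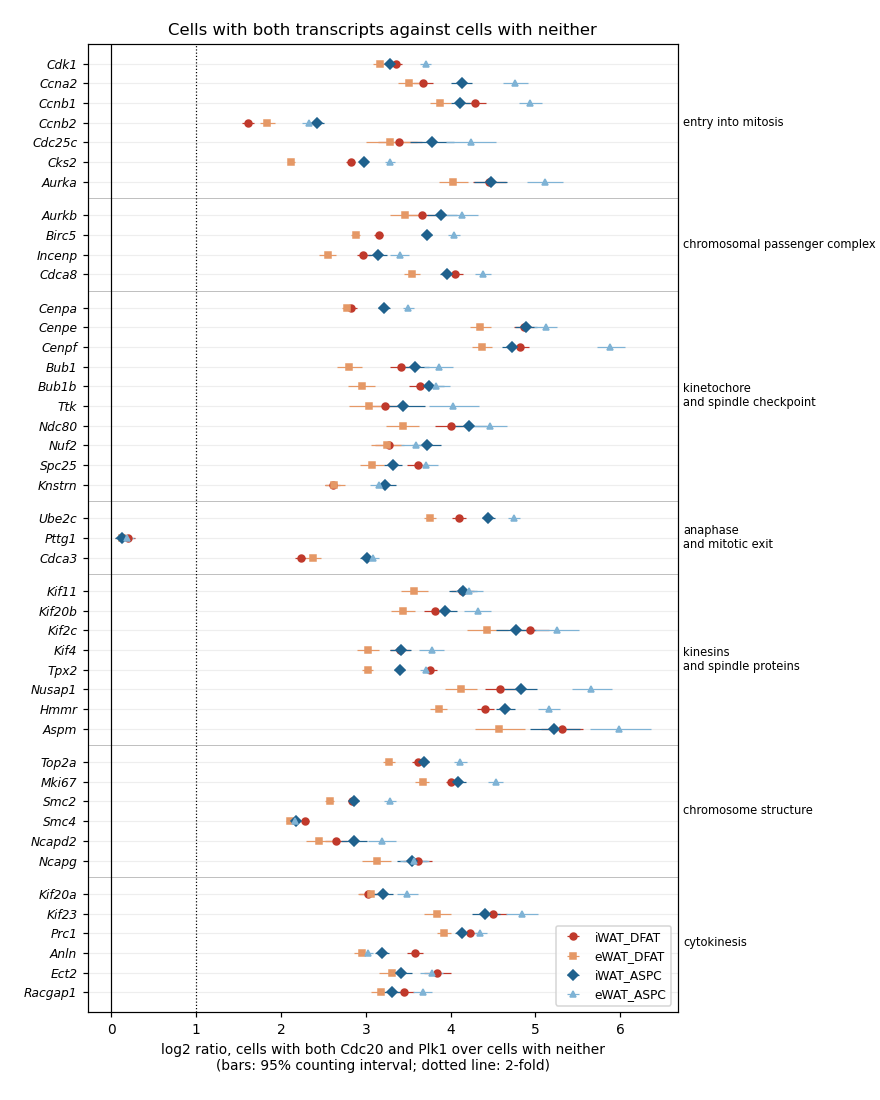
Log2 ratio between cells with both Cdc20 and Plk1 and cells with neither for the 44 other members in the 4 libraries, with 95% counting intervals and a dotted line at 2-fold. Pttg1 lies near 0 in all libraries, and the other members lie between 1.61 (Ccnb2 in iWAT_DFAT) and 5.99 (Aspm in eWAT_ASPC).

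The spindle proteins had the largest ratios as a group, with medians of 4.27, 3.71, 4.39 and 4.74 on the log2 scale over 8 genes. Aspm was at 64.5 CPM in cells with both and 1.62 in cells with neither in iWAT_DFAT, at 32.4 against 1.36 in eWAT_DFAT, at 42.8 against 1.14 in iWAT_ASPC and at 39.2 against 0.617 in eWAT_ASPC. This is a ratio of 39.8-, 23.8-, 37.4- and 63.6-fold. Kif2c, a motor that depolymerises microtubules at kinetochores, was 30.7-, 21.6-, 27.2- and 38.1-fold higher. Nusap1 and Hmmr, which both bind spindle microtubules, were 24.0-, 17.3-, 28.3- and 50.5-fold and 21.3-, 14.5-, 25.0- and 35.7-fold higher. The motors Kif11, Kif20b and Kif4 and the spindle assembly factor Tpx2 had smaller ratios, between 8.15-fold (Tpx2 in eWAT_DFAT) and 19.9-fold (Kif20b in eWAT_ASPC).

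For entry into mitosis the group medians over the 7 genes other than Plk1 were 3.39, 3.29, 3.78 and 4.24. Ccnb1 was at 126 against 6.45 CPM in iWAT_DFAT, 107 against 7.27 in eWAT_DFAT, 138 against 7.96 in iWAT_ASPC and 131 against 4.24 in eWAT_ASPC. Its level in cells with both was thus similar in the 4 libraries, and the level in cells with neither was lowest in eWAT_ASPC. Aurka had ratios of 21.9-, 16.4-, 22.2- and 34.5-fold. Ccnb2 had the lowest ratio of the group in each library, with 3.05-, 3.58-, 5.37- and 5.02-fold, and 26.9, 18.6, 18.2 and 17.8 CPM in cells with neither. Cks2 was at 66.6 CPM in eWAT_DFAT cells with neither, against 43.3, 43.5 and 30.7 CPM in those of iWAT_DFAT, iWAT_ASPC and eWAT_ASPC, and its ratio in eWAT_DFAT was 4.36-fold. Cdk1, Ccna2 and Cdc25c were between 8.97- and 27.1-fold higher over the 4 libraries.

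Kinetochore and checkpoint genes had medians of 3.52, 3.05, 3.65 and 3.84. Cenpf was at 242 against 8.56 CPM in iWAT_DFAT, 164 against 7.93 in eWAT_DFAT, 216 against 8.22 in iWAT_ASPC and 170 against 2.88 in eWAT_ASPC, where its ratio reached 59.1-fold. Cenpe had 29.2-, 20.4-, 29.6- and 34.7-fold. These large kinetochore proteins stood above Cenpa, with 7.09-, 6.89-, 9.24- and 11.3-fold, and Knstrn, with 6.10-, 6.19-, 9.41- and 8.86-fold. The other 6 genes of the group, Bub1, Bub1b, Ttk, Ndc80, Nuf2 and Spc25, had between 6.99-fold (Bub1 in eWAT_DFAT) and 22.0-fold (Ndc80 in eWAT_ASPC).

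The passenger complex had medians of 3.41, 3.17, 3.80 and 4.08, cytokinesis genes 3.71, 3.24, 3.36 and 3.72, and chromosome structure genes 3.23, 2.85, 3.20 and 3.43. In the passenger complex Cdca8 was highest at 16.5-, 11.7-, 15.6- and 20.8-fold and Incenp lowest at 7.86-, 5.86-, 8.81- and 10.5-fold, with Aurkb and Birc5 between 7.35- and 17.5-fold. Of the cytokinesis genes Kif23, the motor of the centralspindlin complex, had 22.6-, 14.3-, 21.3- and 28.7-fold and Prc1 18.8-, 15.2-, 17.5- and 20.3-fold, with Kif23 above Prc1 in each library except eWAT_DFAT. Kif20a, Anln, Ect2 and Racgap1 were between 7.77- and 14.3-fold higher. Of the chromosome genes Mki67 had 16.1-, 12.7-, 17.1- and 23.1-fold and Top2a 12.2-, 9.64-, 12.9- and 17.3-fold. Smc4 had 4.87-, 4.31-, 4.53- and 4.49-fold, with 61.0, 57.7, 62.2 and 62.0 CPM in cells with neither, and thus a similar level in cells with neither across libraries. Smc2, Ncapd2 and Ncapg were between 5.46- and 12.2-fold higher.

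Pttg1 was the member that did not follow the split. It was at 27.3 against 24.0 CPM in iWAT_DFAT, 25.4 against 23.2 in eWAT_DFAT, 27.0 against 24.7 in iWAT_ASPC and 33.4 against 29.4 in eWAT_ASPC. The log2 ratios were 0.19, 0.13, 0.13 and 0.18, and Pttg1 ranked 3293, 3126, 3640 and 2803 among the 10263, 10080, 10040 and 10017 other genes compared. Securin protein is destroyed at anaphase together with cyclin B1, and its transcript here was near level between cells while Ccnb1 differed 14.8-fold or more. Of the genes of exit from mitosis, Ube2c had 17.2-, 13.6-, 21.8- and 26.9-fold. Cdca3, which was listed with them, had 4.68-, 5.20-, 8.07- and 8.47-fold.

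Between 53.4% (Ccnb2 in iWAT_DFAT) and 88.6% (Aspm in eWAT_ASPC) of the UMIs of a member other than Pttg1, Cdc20 and Plk1 lay in the cells with both transcripts, which were 21.5% to 30.7% of the cells. As these cells were deeper, they held a larger share of all UMIs than of cells. Markers of other cell types differed with the split in places. In eWAT_DFAT the summed level of 5 adipocyte markers was 27.9 CPM in cells with both and 119 in cells with neither, and that of 5 endothelial markers 12.2 and 60.7 CPM. In the same library 3 or more of the 7 stromal markers were found in 98.6% of cells with both and 85.3% of cells with neither. Their part in the ratios was not tested. In cells with a Pdgfra or Pdgfrb UMI the median log2 ratios of the 44 members were 3.62, 3.21, 3.69 and 3.98.

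Part of the set was already high in the cells called S phase here. S phase cells were defined by UMIs of both Hist1h1b and Hist1h2ap, replication-dependent histone genes, and none of Cdc20 and Plk1, which gave 288 iWAT_DFAT, 337 eWAT_DFAT, 357 iWAT_ASPC and 445 eWAT_ASPC cells. Both histones were also higher in cells with both transcripts than in cells with neither, with smallest log2 ratios of 1.97 and 2.12. They do not by themselves set S phase cells apart from those cells. S phase cells were deeper than the remaining cells with neither, with medians of 26582 against 19460, 28830 against 23692, 26224 against 22002 and 30126 against 25684 UMIs. The part of depth in their comparison was not tested. Against the remaining cells with neither transcript, 39 of 44, 39 of 42, 39 of 43 and 36 of 42 members at 5 CPM or more were 2-fold or more higher in S phase cells, where 5.07%, 3.83%, 4.49% and 3.71% of all genes passed. From S phase cells to cells with both transcripts, 33, 37, 41 and 43 of the 44 members were 2-fold or more higher still, where 0.98%, 0.963%, 1.28% and 1.51% of all genes passed. The median log2 ratios of that second step were 1.40, 1.44, 1.84 and 2.28. The second step depended on depth: with the classes made after thinning to 5000 UMIs, 19, 17, 20 and 22 members passed.

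Members differed in which of the 2 steps was larger, with classes read at full depth. Whether this order holds with classes made after thinning was not tested. Top2a went from 12.0 CPM in the remaining cells to 208 in S phase cells and 358 in cells with both in iWAT_DFAT, from 10.5 to 118 and 243 in eWAT_DFAT, from 11.2 to 146 and 350 in iWAT_ASPC, and from 7.59 to 76.7 and 286 in eWAT_ASPC. Its first step was larger than its second in every library. Ttk, Kif11, Ect2, Ncapg, Aurkb, Ndc80 and Mki67 had a first step of 2.71 to 4.66 and a second of 0.54 to 2.29 on the log2 scale. In iWAT_DFAT, Smc2, Smc4 and Incenp had the smallest second steps beside Pttg1 and Ttk, with log2 ratios of 0.62, 0.54 and 0.60.

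Cenpa had its difference in the second step. It was at 28.2, 35.1 and 204 CPM in remaining, S phase and both-transcript cells of iWAT_DFAT, at 26.0, 31.9 and 184 in eWAT_DFAT, at 21.1, 27.2 and 202 in iWAT_ASPC and at 19.9, 22.7 and 230 in eWAT_ASPC. Its level thus hardly differed between remaining and S phase cells. Ccnb2 had first steps of 0.25, 0.22, 0.58 and 0.39 and second steps of 1.38, 1.65, 1.93 and 1.99 on the log2 scale. Knstrn, Cdca3 and Kif20a also had second steps above their first in every library. Ccnb1 went from 5.15 to 19.9 and 126 CPM in iWAT_DFAT, from 5.58 to 17.9 and 107 in eWAT_DFAT, from 6.28 to 20.6 and 138 in iWAT_ASPC, and from 3.48 to 9.41 and 131 in eWAT_ASPC. Cenpf had the largest second step in 3 libraries, with log2 ratios of 3.07, 3.44 and 4.18 in iWAT_DFAT, iWAT_ASPC and eWAT_ASPC, and Aspm in eWAT_DFAT, with 2.72. Ube2c had 2.50, 2.53, 2.92 and 3.64.

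**Figure D4:**
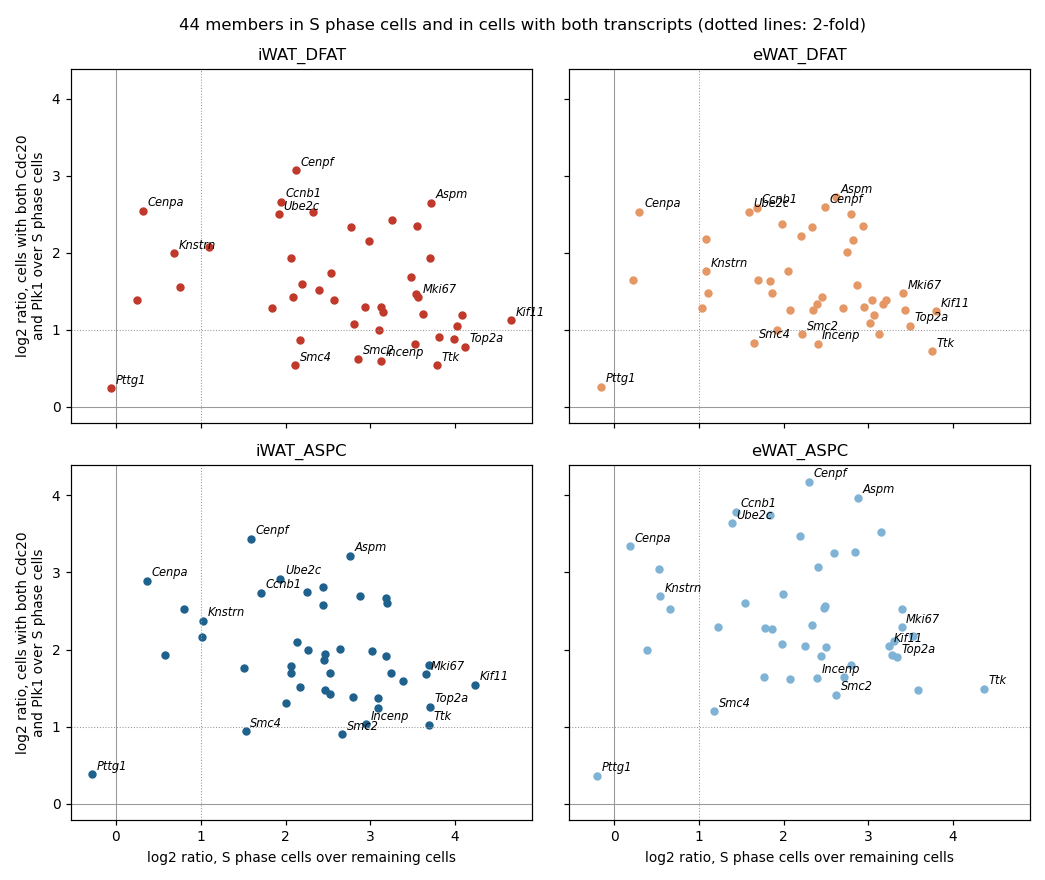
Log2 ratio of S phase cells over remaining cells (horizontal axis) against log2 ratio of cells with both transcripts over S phase cells (vertical axis) for 44 members, 1 panel per library, with dotted lines at 2-fold. Top2a, Ttk and Kif11 lie to the lower right, Cenpa to the upper left, and Pttg1 near 0 on both axes.

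Other lists of the cell cycle programme were compared in the same way. Of 65 other mitosis genes, 62 of 65, 57 of 63, 61 of 65 and 61 of 64 at 5 CPM or more were 2-fold or more higher in cells with both transcripts, with median log2 ratios of 2.88, 2.66, 2.96 and 3.26. Sapcd2, a spindle orientation factor, and the mitotic kinesin Kif14 were highest by their smallest ratio, at 4.45 and 4.14 on the log2 scale, and Psrc1 and Zwint lowest, at 0.30 and 0.19. Of the transcription factor genes of the programme 6 of 10 were 2-fold or more higher in each library. Foxm1 was at 28.5 against 4.52 CPM in iWAT_DFAT, 22.6 against 4.13 in eWAT_DFAT, 29.8 against 3.59 in iWAT_ASPC and 32.1 against 3.33 in eWAT_ASPC. Mybl2, which encodes B-MYB, had log2 ratios of 1.57, 1.59, 1.79 and 2.41, and the MuvB subunit genes Lin9 (1.55, 1.28, 1.75 and 1.70) and Lin54 (1.37, 1.32, 1.63 and 1.71) were also above 2-fold. Lin37 and Lin52, for other subunits of MuvB, had at most 0.44.

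DNA replication genes were 2-fold or more higher for 15, 9, 13 and 22 of 25, with medians of 1.23, 0.87, 1.05 and 1.45. Rrm2, a subunit of ribonucleotide reductase, had 1.72, 1.78, 1.86 and 2.31 on the log2 scale, and Cdc6, which licenses origins, -0.18, 0.24, 0.27 and 0.77. Of 10 CDK inhibitor and D cyclin genes 2 were 2-fold or more higher in each library, Cdkn2d (2.18, 1.97, 2.46 and 2.39) and Cdkn2c (1.59, 1.09, 1.42 and 1.18), which both encode inhibitors of CDK4 and CDK6. Cdkn1c, for the inhibitor p57, was 2-fold or more lower in eWAT_DFAT alone, at 1.51 against 6.73 CPM. Of 12 stromal matrix genes none passed 2-fold either way, with medians of -0.54, -0.18, -0.23 and -0.43, and Lum and Col6a1 had the lowest single ratio, -0.98. Among the leading genes outside all lists were Prr11, Gas2l3, Spdl1, Mns1, Hmgb2, Lockd and Cip2a, each with a log2 ratio of 2.39 or more in every library. Hmgb2, for a DNA-bending chromosomal protein, was at 586 against 85.2 CPM in iWAT_DFAT and at 303 against 37.8 in eWAT_ASPC. At the other end, Mxd4, for a MAX-binding repressor, was at 57.6 against 131 CPM in iWAT_DFAT, 36.0 against 86.0 in eWAT_DFAT, 43.7 against 101 in iWAT_ASPC and 77.5 against 159 in eWAT_ASPC.

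Between cultures the members were compared within a depot and within a cell source, at 1.5-fold. Of the 46 members 14 were higher and 0 lower in iWAT_ASPC than in eWAT_ASPC, where 7.25% of all genes were higher and 7.44% lower. The median log2 ratio was 0.51, beside 0.05 for all genes, and Cenpf (0.77), Nuf2 (0.74), Spc25 (0.73) and Kif20b (0.71) had the largest values. Of the members 45 had an interval above 0, where 49.3% of all genes had, and Pttg1 had one below 0, at -0.24. The 5 mesothelial markers summed to 70.8 CPM in iWAT_ASPC and 88.4 in eWAT_ASPC, none of them at 0 in either. A UMI of 3 or more of them was found in 0 of 7424 and in 7.29% of the cells, and 0 of 7424 allows a share of up to 0.0404%. The 5 endothelial markers, none of them at 0, summed to 40.1 CPM in eWAT_ASPC and to less in iWAT_ASPC, and 3 or more were found in 0.714% of iWAT_ASPC and 2.08% of eWAT_ASPC cells. Immune markers summed to 19.8 CPM in iWAT_ASPC and 57.7 in eWAT_ASPC. The 5 Schwann cell markers went the other way, at 26.3 and 1.61 CPM, and 3 or more were found in 1.89% of iWAT_ASPC cells and in 0 of 6745 eWAT_ASPC cells, which allows a share of up to 0.0445%. Pericyte markers were at 20.9 and 14.7 CPM and adipocyte markers at 12.4 and 17.2, with 1 adipocyte marker at 0 in both. The part of these cells in the ratios was not tested. In cells with a Pdgfra or Pdgfrb UMI, 17 members were higher and 0 lower. In eWAT_DFAT against eWAT_ASPC 7 of the 46 members were higher and 0 lower, where 15.0% of all genes were higher and 13.1% lower. The share of members that were higher was thus about that of all genes. The count of higher members was 12 in cells with a Pdgfra or Pdgfrb UMI and 3 without an upper gene limit, so it depended on which cells were read. In eWAT_DFAT mesothelial markers summed to 26.8 CPM, endothelial to 31.4, immune to 17.6, pericyte to 12.0 and Schwann cell markers to 1.82. Adipocyte markers were higher than in eWAT_ASPC, at 68.5 CPM, and 3 or more of the 5 were found in 2.57% of eWAT_DFAT and 0.0445% of eWAT_ASPC cells. Stromal markers summed to 1470 CPM in eWAT_DFAT and 4000 in eWAT_ASPC, and the part of these differences was not tested. The median log2 ratio of the members for eWAT_DFAT against eWAT_ASPC was 0.32, beside 0.07 for all genes. Smc2 (0.70), Bub1 (0.69), Cenpe (0.64) and Incenp (0.64) had the largest values. Centred on the median of all genes, 9 members were higher in the first comparison and 2 in the second. Both comparisons use the eWAT_ASPC library, and neither stands as a check of the other.

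The contrasts without that library had smaller median ratios. In iWAT_DFAT against eWAT_DFAT 3 members were higher, Aspm (0.75), Bub1b (0.65) and Mki67 (0.59), and 1 was lower, Ube2c (-0.59), where 17.6% of all genes were higher and 9.1% lower. The median was 0.11, beside 0.09 for all genes. Centred on the median of all genes, 1 was higher and 1 lower. Stromal markers summed to 4820 CPM in iWAT_DFAT and 1470 in eWAT_DFAT, immune to 20.3 and 17.6, and Schwann cell markers to 5.01 and 1.82. Endothelial markers were at 7.75 and 31.4 CPM, mesothelial at 5.93 and 26.8, pericyte at 8.86 and 12.0 and adipocyte at 28.7 and 68.5. Of these, 1 adipocyte marker was at 0 in both and 1 mesothelial marker in iWAT_DFAT. The part of these differences in the ratios was not tested. In iWAT_DFAT against iWAT_ASPC 0 were higher and 0 lower, where 18.4% and 10.1% of all genes were. The median there was -0.03, beside 0.09 for all genes. Genes of longer span had higher ratios over all genes in iWAT_DFAT, with medians of 0.21 against eWAT_DFAT and 0.23 against iWAT_ASPC for the longest of 3 equal groups and -0.03 and -0.04 for the shortest. Among the members the 23 longer genes had medians of 0.14 and 0.00 in these comparisons and the 23 shorter ones 0.02 and -0.09, and the part of gene length was not tested.

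Within the cells with both transcripts the differences between cultures had other sizes. Cdc20 and Plk1 selected these cells and are left out here. A dividing cell with less of these transcripts is more easily missed from this class. The ratios within it therefore do not tell fewer dividing cells from less RNA per dividing cell. Of the 44 other members 0 were 1.5-fold apart between iWAT_ASPC and eWAT_ASPC, where 13.0% of all genes were, and the median log2 ratio was 0.13. Between eWAT_DFAT and eWAT_ASPC it was -0.16, with 1 member 1.5-fold apart, Anln at -0.62, where 25.9% of all genes were. For iWAT_DFAT against iWAT_ASPC the median was 0.01 and 1 member was 1.5-fold apart, Aspm at 0.59, where 26.1% of all genes were. For iWAT_DFAT against eWAT_DFAT the median was 0.30, beside 0.12 for all genes, and 5 members were 1.5-fold apart, where 24.2% of all genes were. These 5 were Aspm (0.99), Bub1b (0.88), Mki67 (0.79), Kif11 (0.64) and Ncapd2 (0.61), all higher in iWAT_DFAT. In sum, the 44 other members were at 5640 CPM in eWAT_ASPC cells with both transcripts, against 5940 in iWAT_DFAT, 5010 in eWAT_DFAT and 5920 in iWAT_ASPC. Which cells carry both transcripts depends on depth, which was lowest in iWAT_DFAT. With classes made after thinning to 5000 UMIs, 6 members were 1.5-fold apart for iWAT_DFAT against eWAT_DFAT and 3 for eWAT_DFAT against eWAT_ASPC. The counts for iWAT_DFAT against iWAT_ASPC and iWAT_ASPC against eWAT_ASPC were then 1 and 0, and other effects of depth were not tested.

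**Figure D5:**
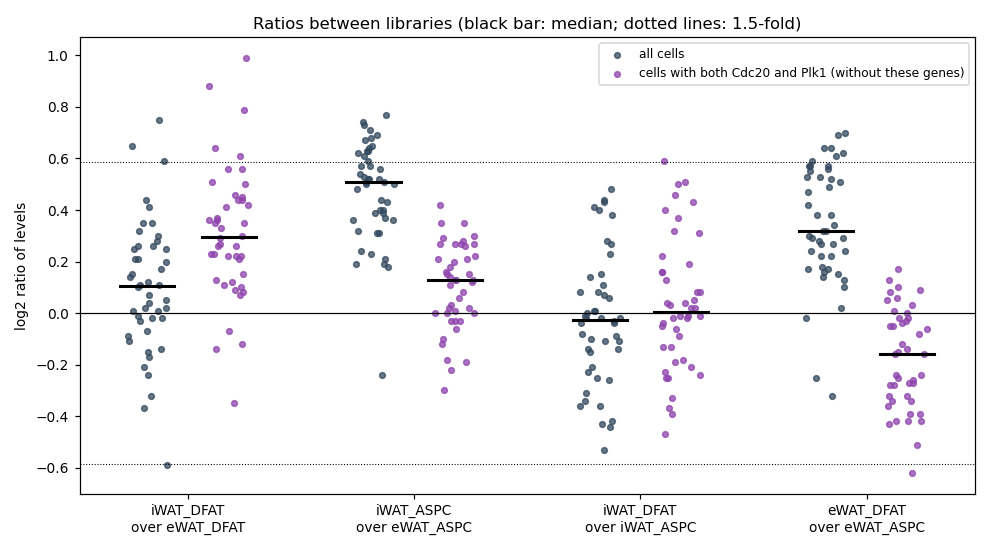
Log2 ratio of each member between 2 libraries, for 46 members in all cells and for the 44 other than Cdc20 and Plk1 in cells with both of these, with the median as a black bar and dotted lines at 1.5-fold. The iWAT_ASPC over eWAT_ASPC median is 0.51 in all cells and 0.13 in cells with both transcripts.

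In cells with neither transcript the order differed again. Over the 44 other members the median log2 ratio was 0.66 for eWAT_DFAT against eWAT_ASPC, 0.47 for iWAT_ASPC against eWAT_ASPC, 0.19 for iWAT_DFAT against iWAT_ASPC and 0.00 for iWAT_DFAT against eWAT_DFAT. Cenpf had the largest ratio against eWAT_ASPC in both comparisons, with 7.93 CPM in eWAT_DFAT, 8.22 in iWAT_ASPC and 2.88 in eWAT_ASPC. The summed level of the 44 members in these cells was lowest in eWAT_ASPC as well, at 439 CPM in sum, against 582 in iWAT_DFAT, 614 in eWAT_DFAT and 539 in iWAT_ASPC. Cells with neither were also deepest in eWAT_ASPC, with a median of 26044 UMIs against 19822, 24418 and 22548. A dividing cell is more easily missed into this class at lower depth, and the part of depth in these values was not tested.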

How the data were processed

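Single-cell libraries of 4 cultures, 1 per condition, were read as the UMI counts per gene and barcode that the authors deposited. The authors made these counts with Cell Ranger on mm10, per the study's methods with intronic reads included. The file headers give Cell Ranger 7.1.0 for iWAT_DFAT, eWAT_DFAT and eWAT_ASPC and version 4 for iWAT_ASPC, whereas the submitters' processing notes give 7.0.0. Whether intronic reads were included in the iWAT_ASPC counts bears on each comparison with that library and was not tested. Over all genes, the median log2 ratio of iWAT_ASPC over eWAT_ASPC was 0.1 for the group of longest span, above 45730 bases. It was -0.0 for the group of shortest span, up to 15230 bases. For iWAT_DFAT the medians of the longest and shortest groups were 0.23 and -0.04 over iWAT_ASPC, and 0.21 and -0.03 over eWAT_DFAT. Library totals were 211396227, 219136195, 242282812 and 241846688 UMIs for iWAT_DFAT, eWAT_DFAT, iWAT_ASPC and eWAT_ASPC. Groups were taken from the sample labels. Rows were taken by gene symbol.

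Barcodes with 5000 to 75000 UMIs, 200 to 7500 genes and under 10% mitochondrial UMIs were kept. No doublets were removed, and a Scrublet run that removed 0.8% per 1000 cells was an alternative. CPM are UMIs summed over the cells of a class per 1000000. Ratios were computed for genes at 5 CPM or more in the higher class, with 2-fold as the limit between classes and 1.5-fold between libraries. Intervals at the 95% level are exact Poisson, conditional binomial or Clopper-Pearson intervals. With 1 library per condition no test across samples was run. Thinning drew 5000 UMIs per cell without replacement. Free RNA was subtracted as an alternative at 5% of the UMIs of a cell, because the estimate from markers of other cell types (75.3%, 19.2%, 37.7% and 30.1%) exceeded what the members allow (4.66%, 5.44%, 4.31% and 4.19%). The 5% is a set value and not an estimate, and it too is above what the members allow in each library except eWAT_DFAT. The scripts were tested on simulated data. Scripts ran in Python 3.11.15 with scanpy 1.11.5 for Scrublet, scipy 1.17.1 for intervals, numpy 2.4.6, pandas 2.3.3, and matplotlib 3.10.9 for figures.

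All 46 members are accounted for by role. From each other list, the genes named are among the 2 highest and 2 lowest by the smallest ratio of the 4 libraries, beside the 8 leading genes outside the lists, of which 1 is not reported here. E2f2 and Ung were under the minimum level. Lin9, Lin54, Lin52, Mxd4 and Cdkn1c were named after their values were seen. The members and lists were chosen with earlier results of these data known.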

Additional observations from a re-analysis of the deposited data

Results flagged for a closer look

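Barcodes above the limits for a cell held both Cdc20 and Plk1 more often than the cells analysed. Among barcodes with over 7500 genes the share was 70.2% in iWAT_DFAT, 66.5% in eWAT_DFAT, 67.9% in iWAT_ASPC and 62.7% in eWAT_ASPC. Among those with over 75000 UMIs it was 88.1% of 42, 65.6% of 125, 73.7% of 236 and 63.8% of 224 barcodes. These barcodes were not among the cells of the reported values, and those over 7500 genes enter the alternative without an upper gene limit. The part of doublets and of depth was not tested.

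For 19 members the DFAT over ASPC log2 ratio had a counting interval below 0 in iWAT and above 0 in eWAT, where 12.4% of 9967 genes had, and no test of the difference between depots was possible with 1 library each. Each is given as iWAT, then eWAT. Among the genes of entry these were Cdk1 (-0.44 and 0.24), Ccna2 (-0.25 and 0.27), Ccnb1 (-0.23 and 0.28), Cdc25c (-0.36 and 0.14), Cks2 (-0.21 and 0.57) and Aurka (-0.15 and 0.52). For attachment and anaphase they were Cdca8 (-0.11 and 0.30), Nuf2 (-0.14 and 0.34), Spc25 (-0.43 and 0.29), Cdc20 (-0.42 and 0.17) and Ube2c (-0.53 and 0.24). Spindle and chromosome genes were Kif20b (-0.10 and 0.61), Tpx2 (-0.08 and 0.38), Nusap1 (-0.11 and 0.17) and Smc2 (-0.04 and 0.70). Cytokinesis genes were Kif23 (-0.14 and 0.57), Prc1 (-0.31 and 0.38), Ect2 (-0.34 and 0.18) and Racgap1 (-0.26 and 0.13).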

How the results depend on the processing

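Of 320 alternative values, 266 stayed within a set range or, for counts, moved by at most 1.5 times, and 54 moved further. For shares the range was the counting interval. For median ratios it ran from the median of the members' lower limits to the median of their upper limits. That range is typical of a single member and is not an interval of the median. No median ratio whose range lay clear of 0 changed sign. The median of iWAT_DFAT over iWAT_ASPC within cells with both transcripts, 0.01, took the other sign under 3 alternatives, at -0.02 without an upper gene limit and after thinning and -0.09 when centred. Every one of the 44 members kept its side of 2-fold between cells with both transcripts and cells with neither in each library and alternative run. No paired analysis was possible because each condition is 1 library and the labels carry no replicate numbers, and for the same reason no replicate could be left out. Sets of 4 values below give iWAT_DFAT first, then eWAT_DFAT, then iWAT_ASPC, then eWAT_ASPC.

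With classes read after thinning to 5000 UMIs, the shares of cells with both transcripts were 6.49%, 5.85%, 8.12% and 5.43%, the median log2 ratios to cells with neither 2.32, 1.83, 2.32 and 2.91, and 19, 17, 20 and 22 members were 2-fold from S phase cells. Within such cells the median was 0.39 for iWAT_DFAT over eWAT_DFAT and -0.27 for eWAT_DFAT over eWAT_ASPC, with 3 members 1.5-fold apart in the latter. With at least 2 UMIs of each transcript the shares were 15.9%, 17.8%, 18.3% and 13.7% and the medians 3.82, 3.38, 3.87 and 4.13. With free RNA subtracted the medians were 3.94, 3.53, 4.15 and 4.37. A lower limit of 500 UMIs gave 28.4% for eWAT_DFAT, 27.1% for iWAT_ASPC and 19.9% for eWAT_ASPC. Removing the highest Scrublet scores gave 24.3% for iWAT_DFAT and 27.5% with a median of 3.80 for iWAT_ASPC.

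Without an upper gene limit the share was 26.7% in iWAT_DFAT and 22.6% in eWAT_ASPC, 2 members were 1.5-fold apart between DFAT libraries, 3 between eWAT libraries, and 0 between iWAT libraries within cells with both transcripts. In cells with a Pdgfra or Pdgfrb UMI the share was 32.6% in eWAT_DFAT and 30.0% in iWAT_ASPC, and 12 members were 1.5-fold apart between eWAT libraries. Means over cells gave medians of 0.02 for iWAT_DFAT over eWAT_DFAT and -0.11 for iWAT_DFAT over iWAT_ASPC. Centred on the median of all genes, these medians were 0.02 and -0.12, and that of eWAT_DFAT over eWAT_ASPC 0.25. The counts 1.5-fold apart were then 2 between DFAT, 9 between ASPC, 1 between iWAT and 2 between eWAT libraries. Within cells with both transcripts centring gave a median of 0.18 with 3 members between DFAT libraries and of -0.09 with 0 members between iWAT libraries. Apart from thinning, fewer cells and centring by construction, the cause was not tested.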
